A study of Mus musculus with 12 samples.

Results

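The comparison set sorted spinal cord cells of females labelled Nkx6.1 cKO, the usual short form for conditional knockout, against those of females labelled control. The sample labels call the cells GFP astrocytes. It covers the 6 libraries NB013 to NB018 of the 12 libraries in the series. Controls were NB018, NB014 and NB015 (replicates 1, 2 and 3), and cKO libraries were NB013, NB016 and NB017 (replicates 1, 2 and 3). All genes with a normalized count of at least 10 in at least 3 of the 6 libraries were tested, which kept 11976 of 24421 entries. Every library, control and cKO alike, carried the genotype label Aldh1l1-GFP, a reporter under the regulatory sequence of the astrocyte gene Aldh1l1. Green cells were sorted from dissociated cord, and libraries were made with the Trio RNA-seq V2 kit from 10 ng of total RNA. The labels used here give no age, no Cre driver, no deleted exon and do not call the replicates separate animals. The p-values below therefore reflect the spread among these 6 samples, part or all of which may be technical. In the text below, values are listed in the order NB018, NB014, NB015 for controls and NB013, NB016, NB017 for cKO, on the scale of the deposited normalized counts.

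Nkx6-1 is a homeodomain transcription factor that acts mainly as a repressor. In the embryonic spinal cord it marks ventral progenitors and is needed for motor neuron and ventral interneuron fates, with Pax6, Olig2, Nkx2-2 and its paralog Nkx6-2 as partners in the same dorsoventral code. Combinations of Pax6 and Nkx6-1 also divide ventral white matter astrocytes, which differ in the secreted guidance proteins Reln and Slit1. Astrocytes clear glutamate and potassium, and their general markers include the glutamate transporter Slc1a2, the water channel Aqp4 and the intermediate filament protein Gfap.

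Controls held 7124347, 6315513 and 4109601 reads assigned to genes, and cKO libraries held 5662377, 2922930 and 2679412. Between 20.9% and 38.8% of the reads lay on Rn45s, the ribosomal RNA precursor. No library had a read on the Y-linked genes checked (Ddx3y, Eif2s3y, Kdm5d and Uty), and Xist, the RNA of the inactive X chromosome, was at 4110 to 7984 in all 6. The lowest value that 3 reads give was 1.84, 1.67 and 3.81 in controls and 2.09, 5.79 and 4.47 in cKO, and this limit covers counting error only. NB009, labelled as a male cKO library, differed from NB016 by no more than sampling noise (chi-square per degree of freedom 1.06, against 15.7 to 96.8 between the 6 female libraries). NB016 stays in the comparison once, and NB009 was left out wherever male libraries were used.

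The distances between libraries of the same group and of different groups covered much the same range. Over 7770 genes with a mean value of at least 50, the SD of the log2 difference between libraries was 0.85 to 0.99 in the 3 control pairs (mean 0.92). It was 0.98 to 1.14 in the 3 cKO pairs (mean 1.05) and 0.84 to 1.12 in the 9 pairs of a control with a cKO library (mean 0.95).

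**Figure D1:**
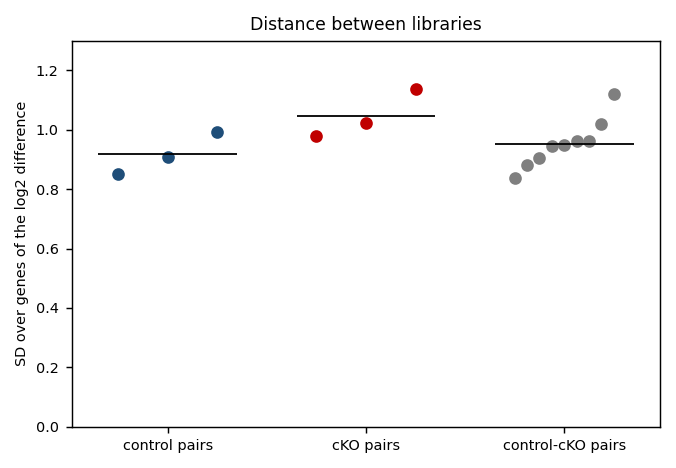
Distance between libraries, as the SD over 7770 genes of the log2 difference (vertical axis, log2 units), for 3 control pairs, 3 cKO pairs and 9 control-cKO pairs; points are pairs and lines are means. The control-cKO pairs, with a mean of 0.95, lie between the control pairs (0.92) and the cKO pairs (1.05).

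Nkx6-1 itself (chr5:101658139-101664996 on the minus strand, mm10) had 19, 7 and 12 reads in controls and 0, 0 and 19 in cKO libraries, or normalized counts of 11.7, 3.90 and 15.2 against 0, 0 and 28.3. NB013 and NB016 had no read, while NB017, labelled cKO, was above every control. The log2 fold change of -1.70 had an SE of 1.75 and a 95% interval of -5.38 to 1.98, so no difference was detectable at this depth. Neither the removed part of the gene nor the place of the reads within it is given in the sources used here, so these reads do not check the label. The library labelled cKO NB017 is kept in its labelled group, and for the lists described below the median without it is given where it moved them by over 1.5 times.

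The label astrocyte was met in part. All 35 astrocyte identity genes had reads in every library, and these genes took 4.06%, 1.36% and 3.37% of reads in controls and 2.48%, 3.39% and 2.68% in cKO. Slc1a2 stood at 39675, 7373 and 41923 in controls and at 18556, 45468 and 20918 in cKO. Gfap stood at 1695, 353 and 1336 against 391, 1986 and 1291. The control NB014 was the lowest library for both genes and for 30 of the 35, whereas it was the lowest library for 17.1% of all genes tested. The 34 mature oligodendrocyte markers, Mbp among them, took 5.61%, 6.47% and 7.55% of reads in controls and 6.30%, 9.38% and 5.42% in cKO. In every library this was more than the astrocyte identity genes took, but in NB018, NB015 and NB016 only with Mbp counted. In these 3 the oligodendrocyte markers summed to 245879, 394001 and 529194, Mbp included, and the astrocyte identity genes to 177877, 175756 and 191336. NB016, with the largest share, was the lowest library for 21 of the 34 markers. Transcripts of other cell types were thus abundant: Mbp, a myelin protein of oligodendrocytes, stood at 92704, 53171 and 258431 in controls and 72966, 398920 and 85925 in cKO, and Dcn, a fibroblast proteoglycan, at 5413, 6240 and 1884 against 13073, 1405 and 16233. NB014 also held 699 for Mpo, the myeloperoxidase of neutrophil precursors, against 0 to 53.3 in the other 5. The 24 neutrophil markers summed to 1872 in NB014 and to between 17.8 and 136 in the rest. In bulk RNA, fewer cells of a type and less RNA per cell cannot be told apart.

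No gene passed the test. With limma on log2(value + 1) and Benjamini-Hochberg adjustment, 0 of 11976 genes (0%) had an adjusted p under 0.05, and the smallest adjusted p was 0.999. At an unadjusted p under 0.05 there were 385 genes (3.21%), 184 higher (1.54%) and 201 lower (1.68%) in cKO, where evenly spread p-values would give 5% or 599. The edgeR quasi-likelihood test on the recovered reads also called 0 genes, with 385 under 0.05 before adjustment. DESeq2 on the same reads called 3 genes, Havcr2, Nrsn2 and Zscan29, with 513 under 0.05 before adjustment. Without NB014 none of these 3 passed in DESeq2 (adjusted p 0.114, 0.0776 and 0.197). The 3 control and 3 cKO values did not overlap for 528 genes higher in cKO (4.41%) and 568 lower (4.74%). In direction, 5981 genes (49.9%) were higher and 5995 (50.1%) were lower, with a median log2 fold change of -0.00.

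The precision depended on the level of the gene. The median SE of a log2 fold change was 0.98 for the 4206 genes with a mean value under 50, 0.55 for the 4665 genes from 50 to 200, 0.36 for the 2700 from 200 to 1000 and 0.30 for the 405 above that. Over all genes the median half-width of the 95% interval was 1.25, wider than a 2-fold difference. In all, 839 genes were at least 2-fold higher and 948 at least 2-fold lower by the fitted value.

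**Figure D2:**
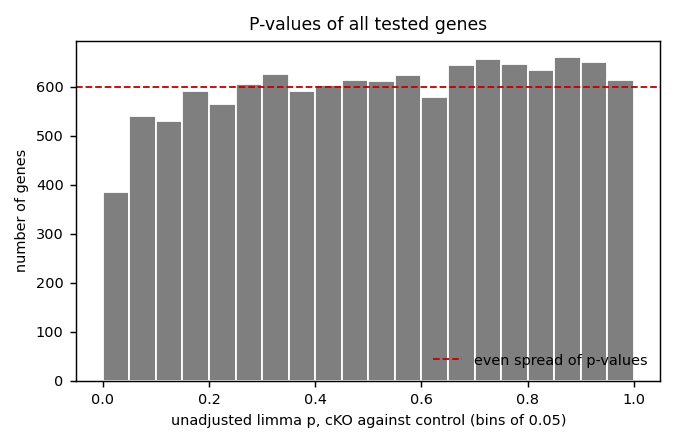
Unadjusted limma p-values of the 11976 genes (horizontal axis, bins of 0.05; vertical axis, genes per bin), with a dashed line at the 599 genes that an even spread would put in each bin. The lowest bin holds 385 genes, below the line.

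The genes closest to the threshold are described next as values. They are the 12 higher and 12 lower genes with the smallest unadjusted p among those whose groups did not overlap and whose mean value was at least 20, and all 24 had an adjusted p of 0.999 in limma. The non-overlap of their groups is part of how they were chosen.

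Havcr2 (chr11:46454935-46481255, plus strand), the TIM-3 receptor of immune cells, stood at 27.1, 19.5 and 2.54 in controls and 49.4, 276 and 161 in cKO, a log2 fold change of 3.37 (SE 0.86). The cKO values ranged widely, and the lowest, in NB013, was less than 2-fold above the highest control. DESeq2 gave it an adjusted p of 0.0425. Nrp2 (chr1:62703285-62818695, plus strand), neuropilin 2, a co-receptor for class 3 semaphorins, stood at 164, 129 and 80.0 against 380, 380 and 237, a log2 fold change of 1.44 (SE 0.40). Its means were 124 ± 42.3 in controls and 332 ± 82.6 in cKO (SD, n = 3 each). Junb, a subunit of the AP-1 transcription factor, stood at 172, 207 and 270 in controls and at 468, 442 and 441 in cKO. The 3 cKO values were close together, with a mean of 451 ± 15.5 against 216 ± 50.1 (SD, n = 3 each), and the log2 fold change was 1.08 (SE 0.33). Junb shares exon sequence with Prdx2 on the opposite strand, whose log2 fold change was -0.68 (SE 0.46), and the strand used in counting is not given in the sources used here.

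Nrsn2 (chr2:152368755-152376638, minus strand), neurensin 2, a vesicle membrane protein of neurons, had no read in any control and stood at 12.5, 90.7 and 20.9 in cKO. The cKO mean of 41.4 was at least 16.9-fold above the mean of the limits that 3 reads set in the controls. That bound holds for the means only, as NB016 raised the cKO mean and NB013, at 12.5, lay nearer the NB015 limit of 3.81. DESeq2 gave an adjusted p of 0.00481. The male controls NB001, NB005 and NB008 stood at 51.3, 1.25 and 0, so not every control of the series lacked reads. In the 6 female libraries, Nrsn2 was the 1 gene with 0 reads in all controls and a normalized count of at least 10 in every cKO library. In reverse, 1 gene, Kifc5b, named after its values were seen, had 0 reads in all cKO libraries and at least 10 in every control. Synpo2, an actin-binding protein of muscle and of stress fibres, stood at 86.1, 55.7 and 53.3 against 249, 210 and 146, a log2 fold change of 1.62 (SE 0.46). Tfam, which packages and transcribes mitochondrial DNA, stood at 28.9, 5.01 and 8.89 against 89.1, 57.9 and 65.6. Pck2, the mitochondrial phosphoenolpyruvate carboxykinase, stood at 7.38, 5.57 and 24.1 against 117, 73.3 and 46.2. Cnksr2, a scaffold of Ras signalling at synapses, stood at 19.1, 34.0 and 34.3 against 169, 75.3 and 86.5. The remaining higher genes were Tmem130, D10Wsu102e, Glt8d2 and Tstd3, with log2 fold changes of 1.64 to 3.61.

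Among the lower genes, Zscan29 (chr2:121158273-121171125, minus strand), a zinc finger protein with a SCAN domain, stood at 82.4, 217 and 356 in controls and 23.7, 40.5 and 40.3 in cKO. Its log2 fold change of -2.42 (SE 0.59) came with the smallest unadjusted limma p of all, 0.000642, and with an adjusted p of 0.0299 in DESeq2. The controls varied over a wider range than the cKO libraries, and Tubgcp4, which shares exon sequence on the opposite strand, had a log2 fold change of -0.65 (SE 0.73). Igsf11 (chr16:38892671-39027159, plus strand), an immunoglobulin-family adhesion molecule, was the most abundant of the 24, at 1267, 1052 and 1021 against 661, 471 and 504. Its means were 1113 ± 134 and 545 ± 101 (SD, n = 3 each), a log2 fold change of -1.04 (SE 0.29). Wdfy2 (chr14:62837678-62961509, plus strand), a protein of early endosomes, stood at 79.9, 92.4 and 47.0 against 8.35, 9.65 and 10.4, with a log2 fold change of -2.77 (SE 0.78).

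Oxa1l, the insertase of the inner mitochondrial membrane, stood at 141, 73.5 and 163 in controls against 18.8, 30.9 and 37.3 in cKO. Cd59a, which blocks the membrane attack complex of complement, stood at 680, 374 and 611 against 125, 241 and 365. The highest cKO value of Cd59a lay just under the lowest control, that of NB014. St18, a zinc finger factor of the Myt family expressed in the oligodendrocyte lineage, stood at 494, 827 and 593 against 414, 147 and 319. Exons of Oxa1l, Nrsn2, Pck2, Wdfy2, D10Wsu102e, Glt8d2, Tstd3 and, below, Heph also overlap those of a gene on the opposite strand, so that reads of both may be mixed. Sf3a1, a splicing factor of the U2 particle, stood at 191, 199 and 230 against 57.1, 56.0 and 106. The remaining lower genes were Ythdc2, a helicase that binds methylated RNA, Ipo13, a nuclear import receptor, Tapbpl, a tapasin-like editor of MHC class I peptides, and Fam107b and Epb4.1l5. Their log2 fold changes ran from -2.71 to -1.29.

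The promoters of the targeted gene, of the lower gene with the smallest p and of the 1 named gene with a homeodomain-type match are shown for context. RefSeq (GRCm38.p6) gives 300 bases for each, from 250 before to 50 after the start, 5′ to 3′ on the strand of the gene, and 18 of the 24 genes matched an entry. Capitals mark TTAATTA or its reverse complement TAATTAA, a sequence with the TAAT core that homeodomains bind.
Nkx6-1 promoter, chr5:101664662-101664961, minus strand: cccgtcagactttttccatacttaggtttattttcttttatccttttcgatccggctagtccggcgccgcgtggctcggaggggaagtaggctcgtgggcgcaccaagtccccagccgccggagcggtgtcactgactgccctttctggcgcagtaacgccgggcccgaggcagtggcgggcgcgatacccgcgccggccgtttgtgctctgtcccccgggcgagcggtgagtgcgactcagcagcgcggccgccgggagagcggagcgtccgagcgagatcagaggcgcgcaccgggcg
Zscan29 promoter, chr2:121171076-121171375, minus strand: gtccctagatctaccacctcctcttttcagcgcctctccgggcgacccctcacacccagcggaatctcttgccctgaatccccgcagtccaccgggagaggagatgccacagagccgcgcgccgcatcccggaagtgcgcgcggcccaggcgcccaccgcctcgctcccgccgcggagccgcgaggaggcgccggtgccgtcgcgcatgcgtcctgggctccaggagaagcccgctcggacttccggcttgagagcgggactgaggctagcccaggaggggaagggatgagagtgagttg
Synpo2 promoter, chr3:123236100-123236399, minus strand: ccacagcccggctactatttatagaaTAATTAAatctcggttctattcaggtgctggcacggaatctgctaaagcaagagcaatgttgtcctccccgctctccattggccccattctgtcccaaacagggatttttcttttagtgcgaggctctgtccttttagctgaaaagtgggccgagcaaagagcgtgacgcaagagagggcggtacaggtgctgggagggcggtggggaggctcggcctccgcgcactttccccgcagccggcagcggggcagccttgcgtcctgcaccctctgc
The sequence was found for 1 of the 18 genes, Synpo2, and in neither of the other 2 promoters shown. Counted by gene, 187 of 9493 tested genes with a promoter entry had it in at least 1 promoter (1.97%). Counted by promoter entry, it occurred in 1010 of all 32851 (3.07%). The binding of Nkx6-1 was not measured in these libraries.

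Gene lists are described by counts and medians, beside the 4.41% of genes higher and 4.74% lower whose groups did not overlap, and no list was tested as a set. No member of any list passed the test. For the dorsoventral patterning genes, 14 of 20 tested regional transcription factors were higher in cKO, with a median log2 fold change of 0.20, and 1 did not overlap between groups. Without NB014 the median was -0.04, and without NB017 it was 0.05. Pbx3, a Hox cofactor, stood at 306, 417 and 203 in controls and 206, 166 and 134 in cKO (-0.83, SE 0.38), with NB013 just above the lowest control. The partners of Nkx6-1 named above as background were picked after their values were seen. Pax6 stood at 50.4, 9.46 and 22.9 against 12.5, 63.7 and 46.2, and Olig2 at 903, 546 and 750 against 789, 645 and 1112. Nkx2-2 stood at 135, 112 and 133 against 57.1, 131 and 152, and Nkx6-2 at 41.2, 63.5 and 52.1 against 57.8, 38.6 and 68.6. Groups overlapped for these 4 genes, and their log2 fold changes were 0.56 (SE 0.88), 0.20 (SE 0.31), -0.27 (SE 0.48) and 0.06 (SE 0.60).

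Among 28 genes of astrocyte position and axon guidance, 19 were lower and 9 higher, with a median of -0.16. Dcc, the netrin receptor, stood at 27.1, 79.6 and 112 in controls and 182, 135 and 183 in cKO (1.39, SE 0.54). Reln stood at 323, 193 and 131 against 225, 276 and 722, and only NB017 lay above the controls. Efnb3, an ephrin that repels axons, stood at 552, 816 and 528 against 676, 322 and 239 (-0.73, SE 0.37), with NB013 among the controls. Slit1 was too low to test. Of 23 Hox genes, which encode position along the cord, 10 were higher and 13 lower, with 4 non-overlapping higher and 1 lower. Hoxb7 stood at 0, 5.57 and 7.62 against 29.2, 75.3 and 19.4 (3.23, SE 1.22), and Hoxb3 at 13.5, 28.9 and 21.6 against 65.4, 36.7 and 73.1 (1.41, SE 0.72). Hoxc6, higher in controls, stood at 117, 47.3 and 62.2 against 5.57, 27.0 and 49.2. The median over the Hox genes of -0.40 was -0.08 in edgeR and -0.18 without NB017.

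Astrocyte identity genes were the list that NB014 moved most in count. With all 6 libraries, 27 of 35 were higher and 8 lower in cKO (median 0.17), and none had groups that did not overlap. Without NB014, 2 were higher and 33 lower (median -0.47), where 48.8% and 51.2% of all genes were higher and lower, and 6 did not overlap, all lower in cKO, beside 8.86% of all genes. Those 6 were Gja1, Gjb6, Sox9, Hepacam, Kcnj10 and Ttyh1, counted after their values were seen. The lower values were not shared by all cKO libraries. The mean log2 value of the list was 10.94, 9.20 and 10.91 in controls and 10.15, 11.04 and 10.33 in cKO. The cKO library NB016 thus lay above every control, and it was the highest library for 16 of the 35 genes. Sox9, a transcription factor of astrocyte fate, stood at 522, 365 and 458 in controls against 321, 338 and 404 in cKO. Hepacam, an adhesion protein of astrocyte end feet, stood at 2086, 1198 and 1938 against 1336, 1521 and 1227. The NB014 value lay within the cKO range for Sox9 and below it for Hepacam, while the other 2 controls were above every cKO library. Gja1, the main astrocyte connexin, stood at 2320, 476 and 1827 against 940, 1693 and 1388, and Kcnj10, the Kir4.1 potassium channel, at 9148, 4335 and 8276 against 5484, 7748 and 4999. NB014, the library behind this reversal, also stood apart in the neutrophil values given above, while its Dcn value lay within the range of the other libraries. The part of either in the reversal was not tested.

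Lists of astrocyte function also moved down without NB014. Glutamate, GABA and glycine handling genes were higher in 20 of 29 (median 0.15) with all libraries and in 8 of 29 (median -0.28) without NB014. For potassium, calcium and water homeostasis the median was -0.07 and became -0.37, with 3 of 30 and then 6 of 30 non-overlapping lower. Atp2b4, a plasma membrane calcium pump, stood at 144, 119 and 309 in controls and 82.1, 75.3 and 59.6 in cKO (-1.27, SE 0.48). Every cKO value of Atp2b4 lay below every control. Receptors of astrocytes had a median of 0.30 and of -0.15 without NB014. Of 34 lists with at least 5 tested members, 22 had a positive median with all libraries and 10 without NB014, and 12 changed sign.

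**Figure D3:**
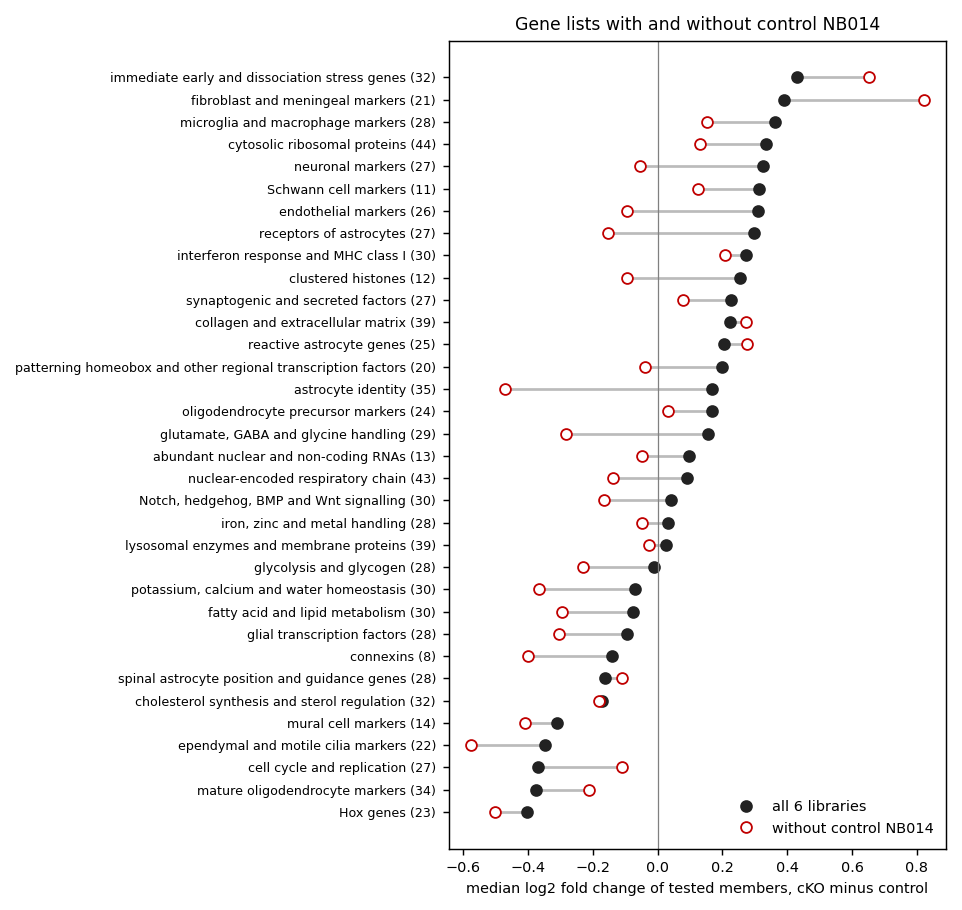
Median log2 fold change, cKO minus control (horizontal axis), of the 34 lists with at least 5 tested members, with all 6 libraries (black) and without NB014; the number of tested members follows each name. Astrocyte identity moves from 0.17 to -0.47 and immediate early genes from 0.43 to 0.65.

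Immediate early genes, which cells switch on within minutes of stress, dissociation included, were mostly higher in cKO. Of 32, 29 were higher and 3 lower, with a median of 0.43, and 3 did not overlap. Zfp36, which destabilises inflammatory messages, stood at 814, 921 and 959 in controls and 1210, 1181 and 2242 in cKO (0.72, SE 0.30). Jun, another AP-1 subunit, stood at 1013, 1713 and 1534 against 1756, 1849 and 2245, and Socs3, an inhibitor of cytokine signalling, at 97.8, 155 and 92.7 against 164, 133 and 419. In Jun and Socs3 NB014 was the highest control. The mean log2 value of the list was 7.20, 8.12 and 7.22 in controls and 7.84, 7.81 and 8.17 in cKO, so NB014 alone of the controls reached the cKO level. Without NB014 the median was 0.65, and 11 of 32 did not overlap, all higher, beside 8.78% of all genes.

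Reactive astrocyte genes were higher in 16 of 25 (median 0.20), with 4 non-overlapping, but the median was -0.08 without NB017. Ptgs2, the inducible cyclooxygenase, stood at 19.1, 98.5 and 86.3 against 111, 120 and 218 (1.36, SE 0.61). Cd14, a lipopolysaccharide co-receptor, stood at 13.5, 27.3 and 22.9 against 43.2, 44.4 and 76.0 (1.33, SE 0.73). Interferon and MHC class I genes moved in both directions. H2-K1, an MHC class I heavy chain, stood at 135, 134 and 184 against 206, 384 and 332 (0.99, SE 0.38), while Rsad2, the antiviral protein viperin, stood at 43.7, 24.5 and 81.3 against 21.6, 0 and 5.96 (-3.07, SE 1.17). In all, 21 of 30 were higher and 9 lower (median 0.27, and 0.11 without NB017), and 3 did not overlap higher and 1 lower.

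Mature oligodendrocyte markers went mostly the other way, with 27 of 34 lower in cKO (median -0.38) and 4 non-overlapping lower. Tmem125 stood at 157, 247 and 236 in controls and at 139, 59.8 and 115 in cKO (-1.08, SE 0.45). Hapln2, a link protein of nodal matrix, stood at 780, 1545 and 905 against 890, 513 and 534 (-0.72, SE 0.33). Trf, the iron carrier transferrin, stood at 8390, 6904 and 8213 against 8203, 1893 and 4027 (-0.98, SE 0.42). NB016 was the lowest library for 21 of the 34 and NB014 the highest for 20, and the median without NB014 was -0.21. The myelin genes did not move as 1: Mbp was highest in NB016, at 398920, where Mog, a myelin surface glycoprotein, was at its lowest (413). For precursor markers, 17 of 24 were higher. Their median of 0.17 was 0.03 without NB014 and 0.02 without NB017, the highest library for 14 of them. Pdgfra, the receptor that defines precursors, stood at 1655, 1464 and 1793 against 2199, 1610 and 2336, and Xylt1, a xylosyltransferase of proteoglycan synthesis, at 157, 95.7 and 137 against 330, 216 and 239.

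Lipid and growth lists gave mixed counts. Of 32 cholesterol genes, 22 were lower (median -0.17, and -0.08 without NB017), 3 non-overlapping. Dhcr7, the last enzyme of cholesterol synthesis, stood at 317, 225 and 229 in controls and 165, 104 and 82.0 in cKO (-1.17, SE 0.41). Srebf2, the transcription factor that switches on sterol synthesis, stood at 469, 380 and 571 against 211, 284 and 270 (-0.88, SE 0.33). Msmo1, a sterol oxidase of the same pathway, stood at 707, 483 and 515 against 388, 442 and 295. These 3 genes were lower in every cKO library than in every control. Among fatty acid genes, Lpl, the lipoprotein lipase, stood at 50.4, 42.3 and 62.2 against 77.3, 124 and 279 (1.43, SE 0.55), and Elovl7, a fatty acid elongase, at 1033, 1495 and 1049 against 757, 648 and 742 (-0.72, SE 0.28). That list was split, 14 higher and 16 lower (median -0.08, -0.30 without NB014 and -0.04 without NB017).

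Cytosolic ribosomal protein genes were higher in 39 of 44 (median 0.33), with 5 non-overlapping, and the median was 0.13 without NB014. NB016 was the highest library for 33 of the 44. Rplp0 stood at 191, 161 and 192 in controls and 349, 305 and 222 in cKO (0.66, SE 0.36). Cell cycle genes were lower in 17 of 27 (median -0.37, and -0.11 without NB014). Mcm2, a helicase subunit of DNA replication, stood at 18.4, 65.7 and 137 against 11.8, 7.72 and 14.9 (-2.22, SE 0.88), and Ncapd3, a condensin subunit, at 55.3, 250 and 225 against 37.6, 61.8 and 40.3 (-1.67, SE 0.60). The control NB018 lay far below the other 2 controls for both. Lysosomal genes were split, 20 higher and 19 lower (median 0.03, -0.02 without NB014 and -0.11 without NB017), with 2 non-overlapping higher and 3 lower. Asah1, the acid ceramidase, stood at 305, 248 and 329 against 656, 477 and 468 (0.85, SE 0.32), and Gla, the lysosomal alpha-galactosidase, at 87.9, 57.3 and 68.6 against 39.0, 34.7 and 19.4 (-1.21, SE 0.64).

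Markers of other cells present in the sort are given beside these lists. Of 28 microglial markers 21 were higher (median 0.36), but without NB017 the median was -0.23, and NB017 was the highest library for 22. C1qa, a complement component of microglia, stood at 25.8, 65.1 and 17.8 in controls and 80.1, 69.5 and 173 in cKO (1.63, SE 0.65), whereas Cd68, a lysosomal protein of phagocytes, stood at 116, 134 and 136 against 15.3, 38.6 and 165. Endothelial markers were higher in 17 of 26 (median 0.31, -0.10 without NB014 and 0.03 without NB017). Robo4, an endothelial guidance receptor, stood at 48.6, 39.0 and 20.3 against 64.0, 118 and 125 (1.51, SE 0.61). Myh11, the smooth muscle myosin of mural cells, stood at 209, 96.3 and 85.1 against 9.05, 42.5 and 71.6 (-1.93, SE 0.71), and 9 of 14 mural markers were lower. Fibroblast markers were higher in 15 of 21 (median 0.39, 0.82 without NB014 and 0.21 without NB017), and their mean log2 values of 6.84, 8.23 and 6.48 in controls and 8.41, 6.53 and 7.79 in cKO set NB014, NB013 and NB017 apart from the other 3. Neuronal markers were higher in 18 of 27 (median 0.32, and -0.06 without NB014), among them Vsnl1, a neuronal calcium sensor, at 223, 132 and 291 against 349, 797 and 331 (1.14, SE 0.40). Ependymal markers had a median of -0.35 with 14 of 22 lower, which was -1.30 without NB017 and 0.26 in edgeR. Schwann cell markers (7 of 11 higher) had a median of 0.31 and collagen and matrix genes (28 of 39 higher) one of 0.22, and without NB017 these were -0.01 and 0.00. The part of these cells in the results above was not tested.

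Leaving out NB014 did not produce calls in limma. With 3 cKO and 2 control libraries, 0 of 11976 genes passed (0%), the smallest adjusted limma p was 0.209 and 340 genes (2.84%) had an unadjusted p under 0.05. The sign of the log2 fold change turned in 1878 genes (15.7%). Groups did not overlap for 1052 genes higher (8.78%) and 1061 lower (8.86%), more than with 6 libraries because fewer values have to be separated. Before adjustment, 370 genes were under 0.05 in edgeR, which called 0, and 516 in DESeq2, which called 2. Those 2, Serpinf1 and Cxcl2, each had a DESeq2 adjusted p of 0.9997 with all 6 libraries. No DESeq2 call was thus shared by both fits.

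Of the genes that entered by the same rule without NB014, those higher in cKO are given first. Serpinf1 (chr11:75409769-75422701, minus strand), the secreted factor PEDF, stood at 18.4, 314 and 33.0 in controls and 229, 178 and 276 in cKO. Its log2 fold change was 1.92 (SE 0.89) with all libraries and 3.13 without NB014, and DESeq2 without NB014 gave an adjusted p of 9.8e-05. Cxcl2, a neutrophil-attracting chemokine, stood at 14.8, 144 and 11.4 against 116, 110 and 115, and its DESeq2 adjusted p without NB014 was 0.0204. The 3 cKO values of Cxcl2 were nearly equal, and NB014 lay above them. Fosb, an immediate early AP-1 subunit, stood at 175, 1053 and 364 against 1056, 589 and 772 (0.94, and 1.63 without NB014). Ptrh2, a mitochondrial peptidyl-tRNA hydrolase, stood at 10.5, 43.4 and 0 against 96.1, 52.1 and 65.6. Elp4, a subunit of the Elongator complex, was lower in cKO, at 483, 119 and 230 against 79.4, 96.5 and 73.1 (-1.51, SE 0.49).

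The male libraries NB001, NB005 and NB008 (control) and NB003 and NB011 (cKO), which share the Aldh1l1-GFP label and no library with the females, allowed the same contrast. It was fitted in 1 limma model of 11 libraries, female ones included, so its SEs and p-values reflect the spread in both sexes. In males, too, 0 genes passed in limma (0%), with 1195 at an unadjusted p under 0.05 (9.98%) and a smallest adjusted limma p of 0.234. The female contrast in that model gave 455 genes at an unadjusted limma p under 0.05, beside 385 from the female libraries alone. Of the 24 genes described above, 14 (58.3%) had the same sign in males, and so had 54.9% of all genes tested. Nrp2 (1.12, SE 0.47), Junb (0.90, SE 0.40) and St18 (-1.26, SE 0.44) had the same sign and an unadjusted limma p under 0.05. Oxa1l (1.28, SE 0.60) had the opposite sign, also with an unadjusted limma p under 0.05. The 10 genes with the opposite sign included all 3 that DESeq2 called in the 6 female libraries. These were Havcr2 (-1.79, SE 1.19), Nrsn2 (-1.32, SE 1.76) and Zscan29 (0.25, SE 0.61), each with an unadjusted limma p over 0.05 in males. Astrocyte identity genes had a median of 1.56 in males, with 35 of 35 higher (48.6% of all genes), beside 0.17 in females, and immediate early genes a median of -0.09 beside 0.43. Mature oligodendrocyte markers, St18 among them, had a median of -0.99 in males, with 28 of 34 lower, beside -0.38 in females.

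The difference of the 2 effects was tested gene by gene. No gene passed (0%), 678 had an unadjusted p under 0.05 (5.66%), and the smallest adjusted limma p was 0.179. That was Heph (chrX:96455359-96574485, plus strand), hephaestin, a copper-dependent ferroxidase that helps export iron. In females it stood at 203, 74.6 and 118 in controls and 20.2, 65.6 and 23.9 in cKO. In males it stood at 23.6, 23.4 and 27.9 in controls and at 203 and 234 in cKO. The log2 fold change was -1.90 (SE 0.63) in females and 3.08 (SE 0.65) in males, a difference of -4.98 (SE 0.87). Groups did not overlap in either sex and pointed in opposite directions, but the difference did not pass the correction.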

How the data were processed

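RNA-seq libraries of sorted female spinal cord cells labelled GFP astrocytes, 3 control and 3 cKO, were analysed. FastQC 0.10.1, MultiQC 0.9, STAR 2.5.0a, DESeq2 1.20.0 and build mm10 are named in the submitters' processing notes; the counting tool, annotation and strand setting are not given in the sources used here. The deposited values are a normalized signal, gene counts that the authors divided by 1 factor per library. Dividing by the smallest step gave whole reads for 100% of values within 0.01 reads, and the count test on them is given beside the main one.

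Here, limma 3.58.1 (R 4.3.3; trend, robust) was fitted to log2(value + 1) of the 6 libraries after genes were kept that reached 10 in 3 or more of them, with Benjamini-Hochberg adjustment at 0.05. A fold change on this scale understates that of low genes. Alternatives were edgeR 4.0.16 and DESeq2 1.42.0 on recovered reads, other pseudocounts, filters and scalings, a replicate block and each library left out. The male contrast and the difference between sexes, an interaction term, came from 1 limma model over 11 libraries without NB009. Scripts were tested on simulated data. Named genes were the 12 in each direction with the smallest unadjusted p, non-overlapping groups and a mean of at least 20, the same without NB014, up to 4 of each list by p, and defining markers. The members, lists and rules were chosen with earlier results of these data known.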

Additional observations from a re-analysis of the deposited data

How the results depend on the processing

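The count of genes past the adjusted threshold was 0 in the 6-library limma fit and in every alternative but DESeq2, which called 3 with 6 libraries and 2 without NB014. No gene was called by DESeq2 in both. Genes at an unadjusted p under 0.05 numbered 385, and 240 with a mean value of at least 50, where fewer genes are tested. Leaving out 1 library gave 330 (without control replicate 1) to 610 (without cKO replicate 1). Non-overlapping genes numbered 1096, 684 with that filter, 2053 to 2476 with 1 library left out and 3684 without NB014 and NB017, where fewer values have to be separated. It was 1092 with the reads rescaled by TMM, the scaling that edgeR uses, and 1006 when scaled to the total outside Rn45s. This count was not recomputed for pseudocounts, limma without trend or the block, which leave the order of values as it is. Nor was it recomputed for edgeR and DESeq2, which rescale the libraries. Same-numbered control and cKO libraries did not deviate together (correlations -0.112, -0.255 and -0.0914), no library correlated best with its own number, and the replicate block gave 0 genes and 285 at an unadjusted p under 0.05.

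Of 107 tested genes followed through the alternatives, 96 never turned sign. The 24 genes chosen for non-overlapping groups cannot turn sign in limma when 1 library is left out, so this count does not check them. Among all genes tested, 15.7% turned sign without NB014 alone. Leaving out 1 library gave log2 fold changes of -0.55 to 0.72 for Aqp4, -0.65 to 0.61 for Slc1a2, -0.59 to 0.79 for Gfap, -0.66 to 0.48 for Gja1 and -0.019 to 1.24 for Pax6, each lowest without NB014. The range was -4.50 to 0.22 for Mpo, highest without NB014, and -0.45 to 0.95 for Mbp, lowest without cKO replicate 2 and -0.19 without NB014. It was -0.71 to 0.12 for Aldh1l1, -0.0091 to 0.38 for Olig2, -0.54 to 0.16 for Nkx2-2 and -0.12 to 0.29 for Nkx6-2. With 6 libraries, edgeR and DESeq2 gave -0.028 and -0.0091 for Aqp4, -0.083 and -0.065 for Slc1a2, and -0.22 and -0.20 for Gja1. Without NB014 they gave -0.48 and -0.46 for Aqp4, -0.54 and -0.53 for Slc1a2, -0.33 and -0.31 for Gfap, and -0.65 and -0.63 for Gja1. The edgeR and DESeq2 fits without NB014, and the fit without NB014 and NB017, were chosen after seeing the data. Causes beyond the library named were not tested. The median of 11 of 34 lists kept its sign in every alternative. The gene-level precision is limited by 3 libraries a group and by the 2679412 reads of the shallowest.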
